A study of Mus musculus with 12 samples.

Results

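The 42 genes described here are interferon-stimulated genes, taken by name from a list and found under their symbols in all 12 files, among 40840 genes in all. Guanylate binding proteins are not among them. Earlier results of these data were known when the list was chosen. The list holds genes of 8 roles: the ISG15 system, transcription factors, RNA and DNA sensors, IFIT proteins, OAS proteins, restriction factors, other induced proteins and immunity-related GTPases. Total RNA was sequenced from the immune cell fraction that was separated on Percoll from perfused and digested livers, and that the labels call hepatic macrophages. The mice were male, 8 to 10 weeks old at the start, and were fed normal chow diet (NCD) or high-fat diet (HFD) for 12 weeks. Wild-type (WT) mice were C57BL/6 by the labels (C57BL/6J by the study's methods), and Casp11-/- mice carried the allele Casp4tm1Yuan, a deletion in the gene for caspase-11 in every cell of the body. Genotype and diet gave 4 groups of 3 mice, so a p-value measures the spread between these mice only.

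Interferons are secreted proteins that cells release when they sense foreign nucleic acid or bacterial products. Type I and type III interferons act through cell surface receptors and lead to the binding of a complex that holds IRF9 at the interferon-stimulated response element (ISRE). Interferon-gamma, made mainly by NK and T cells, acts through a receptor of its own and the gamma-activated sequence (GAS), and macrophages of the liver are a known target of both.

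Values are TPM (transcript abundance scaled to a common library total) as deposited, where no value lies under a floor of 1.01. WT-NCD replicate 3 stood apart: its correlations across genes with the other libraries were -0.266 to -0.0681, and it had 39677 genes above the floor, where the others had 12940 to 18775. It was left out of the tests, so WT-NCD had 2 libraries, and a fit with all 12 is given beside the counts. Copies of U3, an abundant small nucleolar RNA, took 1.24% to 4.84% of TPM in the 5 remaining NCD libraries and 25.8% to 58.5% in the 6 HFD libraries, while protein-coding genes took 22.3% to 42.4% and 15.7% to 25.2%. Comparisons are therefore also given after the TPM of protein-coding genes had been brought to the same sum in every library, called the coding scale, with values under the highest rescaled floor, 6.30, raised to it. It holds 40 of the 42 genes, since RefSeq types Mx1 and Mx2 as transcribed pseudogenes. Summed TPM of 10 Kupffer cell markers was 50.1 to 144 on NCD and 268 to 889 on HFD, that of 7 B cell markers 427 to 1715 and 136 to 298, and that of 7 NK cell markers 175 to 377 and 56.0 to 92.9. The Kupffer cell markers Clec4f and Vsig4 were above the floor in every library. Marco was at the floor in all 5 fitted NCD libraries and in Casp11-/- HFD replicate 2, and Timd4 was at it in Casp11-/- NCD replicate 2. Casp4, the targeted gene, was at 12.1 and 15.6 TPM in WT-NCD, 7.09, 5.597 and 11.4 in WT-HFD, 4.93, 2.56 and 15.2 in Casp11-/- NCD and 2.78, 8.68 and 4.73 in Casp11-/- HFD. A value summed over the whole gene does not show which exons were read, so it does not check the labels, and groups are named here as the libraries were labelled.

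All 42 genes were above the floor in 3 or more of the 11 fitted libraries, and 4 (Ifi44, Oas1g, Isg20 and Mx2) were at the floor in 1 library each. Ifitm3, a membrane protein that blocks the entry of viruses, had the highest mean, 232 TPM over the 11 libraries. The next were Trim30a, a ubiquitin ligase of the TRIM family (46.1 TPM), Bst2, or tetherin, which holds budding viruses at the cell surface (36.2), Ifi27l2a, a small induced membrane protein (34.9), and Trim25, a ligase that acts on the sensor RIG-I (33.0). The highest library was from 2.40-fold (Bst2) to 12.95-fold (Oas2) above the lowest. The mean was 20 to 100 TPM for 12 genes, 10 to 20 for 9 and under 10 for 20, with Mx2 the lowest at 2.31.

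**Figure D1:**
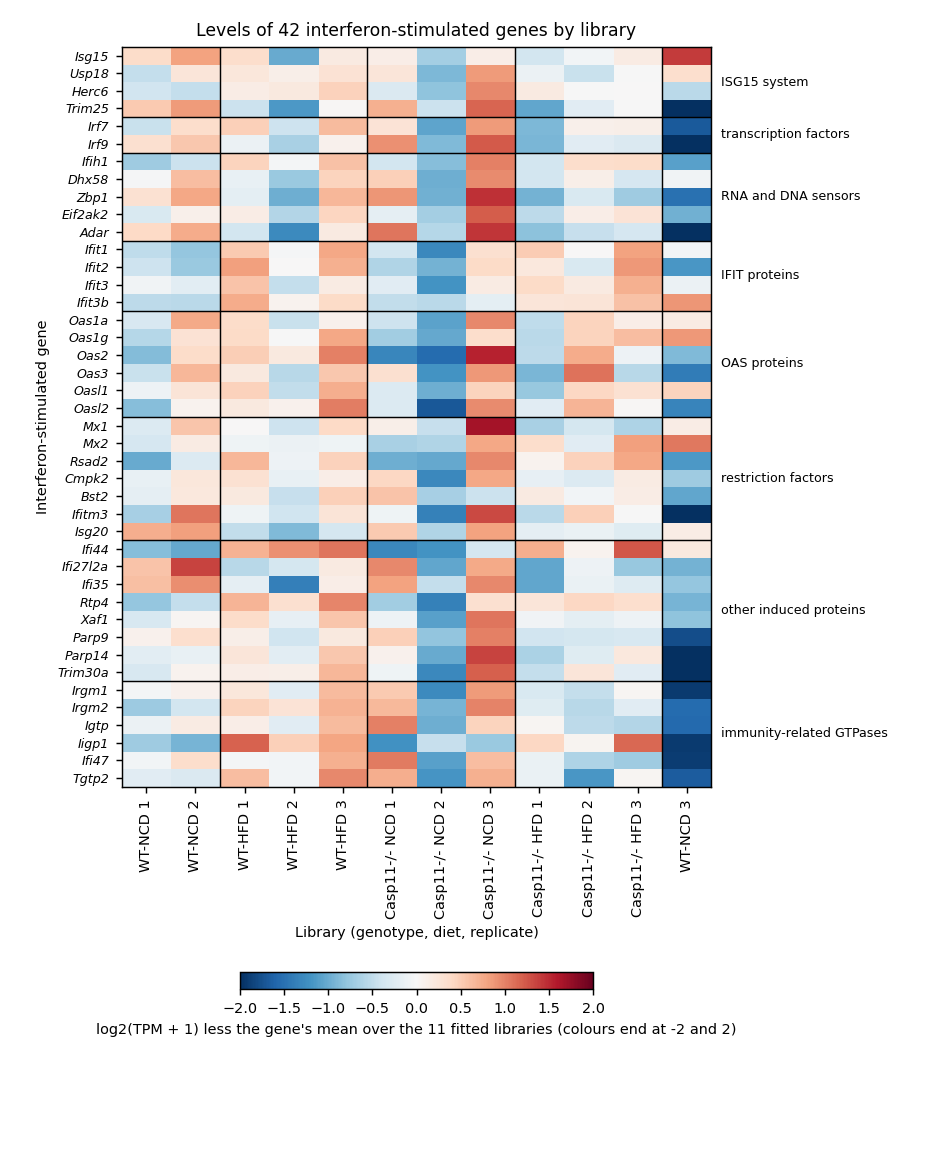
Heat map of the 42 genes (rows, grouped by role) in the 12 libraries (columns, WT-NCD replicate 3 last), coloured by each gene's value relative to its mean over the 11 fitted libraries on the log2(TPM + 1) scale. Casp11-/- NCD replicate 2 is the lowest library for 29 genes and Casp11-/- NCD replicate 3 the highest for 23.

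Ifitm3 was at 128 and 428 TPM in WT-NCD, 193, 155 and 243 in WT-HFD, 191, 79.6 and 508 in Casp11-/- NCD and 140, 285 and 202 in Casp11-/- HFD. Trim30a was at 33.7 and 44.2 TPM in WT-NCD, 46.5, 45.8 and 67.1 in WT-HFD, 39.6, 16.7 and 97.6 in Casp11-/- NCD and 30.2, 50.1 and 35.8 in Casp11-/- HFD. For both genes the lowest and the highest library belonged to the same group, Casp11-/- NCD, and the groups overlapped. That held for much of the list: Casp11-/- NCD replicate 2 was the lowest of the 11 libraries for 29 of the 42 genes, and Casp11-/- NCD replicate 3 the highest for 23. Per coding total, replicate 2 was still the lowest for 22 genes, while WT-HFD replicate 3 was the highest for 13 and Casp11-/- NCD replicate 3 for 8. The 7SL RNA took 52.8% of TPM in Casp11-/- NCD replicate 2, the largest share of any library. Summed TPM of 8 hepatocyte markers was 16315 in that library, against 6559 and 6794 in Casp11-/- NCD replicates 1 and 3 and 23415 in WT-NCD replicate 1. Protein-coding genes took 22.3% of TPM in Casp11-/- NCD replicate 2 and 42.4% in replicate 3. These were the lowest and highest shares of the fitted NCD libraries. Casp11-/- NCD replicate 3 also had the most genes above the floor of the fitted libraries, 18775. Its summed TPM of 5 erythroid markers, 15338, was the highest of any library. The part of any of these in the low or high values was not tested.

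To show what the genes share in sequence, RefSeq windows of 250 bases before to 50 after the start (GRCm38.p6) were searched on both strands, and 31 of the 42 genes had 1 or more, 38 windows in all. The ISRE core, GAAA followed after any 2 bases by GAAA, was present in 18 of the 38 windows (47.4%, 17 genes), against 3.44% of all 32851 windows. The GAS core TTCNNNGAA was present in 11 (28.9%), against 8.3% of all. A window with several or overlapping matches counted once. The 250 bases before the start are shown for 6 genes that differ in this respect, 5′ to 3′ along the gene, with ISRE matches in capitals.
The window of Isg15, the ubiquitin-like modifier, lies at chr4:156200819-156201068 on the minus strand and has 3 overlapping matches.
Isg15: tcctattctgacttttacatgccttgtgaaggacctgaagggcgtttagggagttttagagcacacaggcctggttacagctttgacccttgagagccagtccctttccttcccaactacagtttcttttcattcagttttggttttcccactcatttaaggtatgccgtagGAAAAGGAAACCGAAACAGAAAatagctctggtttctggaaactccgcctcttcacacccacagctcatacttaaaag
For Ifit1, whose protein binds viral RNA at its cap, the window is chr19:34640639-34640888 on the plus strand.
Ifit1: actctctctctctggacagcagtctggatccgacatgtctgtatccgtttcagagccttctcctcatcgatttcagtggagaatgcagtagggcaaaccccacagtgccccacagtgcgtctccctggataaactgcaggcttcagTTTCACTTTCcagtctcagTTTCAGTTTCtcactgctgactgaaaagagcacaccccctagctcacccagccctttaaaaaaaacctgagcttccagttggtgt
Ifit3, a partner that stabilises other IFIT proteins, starts after chr19:34583279-34583528 on the plus strand.
Ifit3: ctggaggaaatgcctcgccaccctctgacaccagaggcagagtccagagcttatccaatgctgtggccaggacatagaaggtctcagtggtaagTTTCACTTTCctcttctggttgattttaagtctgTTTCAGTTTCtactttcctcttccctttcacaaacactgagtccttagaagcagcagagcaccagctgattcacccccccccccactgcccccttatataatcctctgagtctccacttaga
Its near-copy Ifit3b starts after chr19:34607707-34607956 on the plus strand.
Ifit3b: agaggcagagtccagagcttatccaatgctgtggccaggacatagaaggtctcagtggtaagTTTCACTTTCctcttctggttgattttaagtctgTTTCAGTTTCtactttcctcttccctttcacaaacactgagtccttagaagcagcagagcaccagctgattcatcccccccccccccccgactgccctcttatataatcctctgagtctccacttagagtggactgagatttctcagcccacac
The window of Rsad2, which encodes the antiviral enzyme viperin, lies at chr12:26456453-26456702 on the minus strand.
Rsad2: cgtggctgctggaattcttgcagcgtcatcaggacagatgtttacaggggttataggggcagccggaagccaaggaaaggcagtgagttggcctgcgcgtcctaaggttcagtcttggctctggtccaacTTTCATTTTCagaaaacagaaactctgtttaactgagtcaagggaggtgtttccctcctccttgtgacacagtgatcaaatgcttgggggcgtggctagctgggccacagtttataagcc
For Ifi44, a gene of little-known function that interferon induces strongly, the window is chr3:151749911-151750160 on the minus strand.
Ifi44: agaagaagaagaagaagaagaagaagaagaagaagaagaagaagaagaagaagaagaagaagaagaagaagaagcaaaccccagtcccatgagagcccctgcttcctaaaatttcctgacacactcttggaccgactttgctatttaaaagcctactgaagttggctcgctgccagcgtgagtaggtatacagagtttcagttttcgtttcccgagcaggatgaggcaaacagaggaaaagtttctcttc
Matches began 104 and 85 bases before the start of Ifit1, 156 and 122 before Ifit3, 188 and 154 before Ifit3b and 120 before Rsad2. Ifit3 and Ifit3b shared an identical run of 169 bases that holds both of their matches. An exact match was not found in the window of Ifi44, which opens with a repeat of gaa. Near matches were not searched for in any window, so this does not show that Ifi44 lacks a similar element.

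The diet comparison asked whether HFD changed these genes with both genotypes in 1 estimate, the mean of the diet differences in WT and in Casp11-/- mice. Ifi44, Iigp1, Rtp4 and Ifit3b rose on HFD, and Isg20 and Adar fell (limma on log2(TPM + 1), adjusted p under 0.05 over 17950 genes). The 4 genes called higher were 9.52% of the list, where 1.07% of all genes tested were called higher. The 2 called lower were 4.76% of the list, where 17.3% of all genes were called lower, and 18.3% in either direction. The median log2 fold change of the list was 0.02 and that of all genes tested -0.39, so most genes fell in share of TPM, and 22 of the 42 were above 0 against 31.7% of all. With unadjusted p under 0.05, 7 genes were higher and 6 lower, against 2.7% and 34.1% of all genes tested. For 3 genes (Ifi44, Ifit3b and Iigp1) every HFD library was above every fitted NCD library, against 0.39% of all genes tested, and for 0 the reverse held, against 5.6%.

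**Figure D2:**
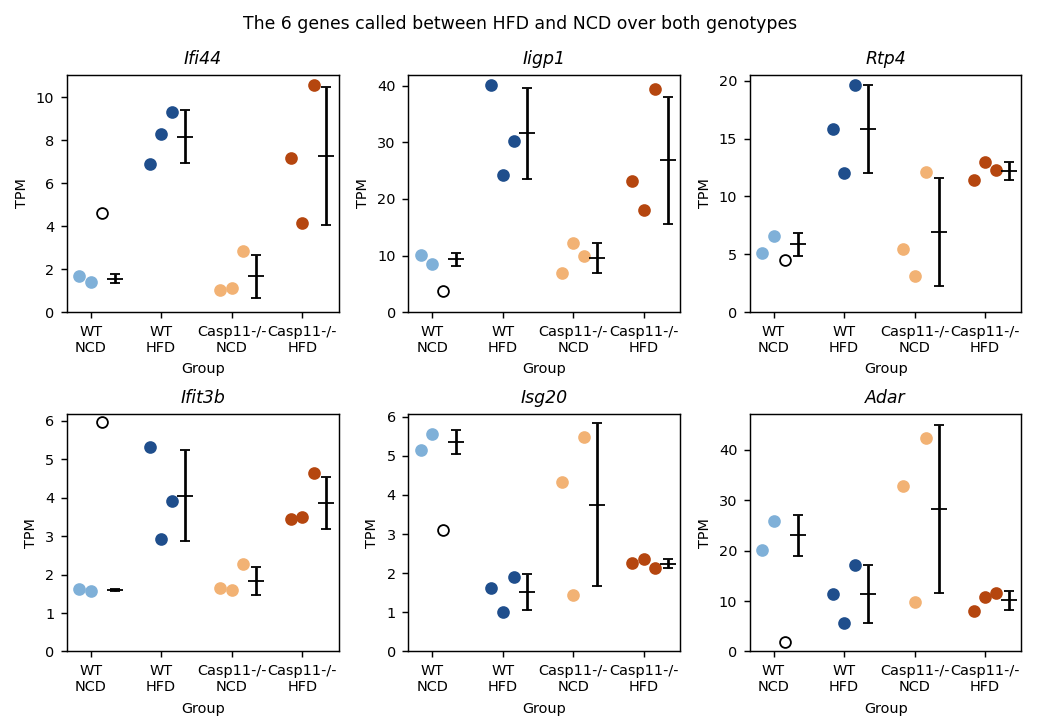
Deposited TPM of the 6 genes called in the diet comparison, by group, with a point for each library, bars for the mean and SD of the fitted libraries and an open circle for WT-NCD replicate 3, which was not fitted. All 6 HFD libraries of Ifi44, Iigp1 and Ifit3b lie above all 5 fitted NCD libraries, and the groups overlap for Rtp4, Isg20 and Adar.

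Ifi44 (chromosome 3, 151730922 to 151749960, minus strand) was at 1.70 and 1.40 TPM in WT-NCD, 6.91, 8.26 and 9.32 in WT-HFD, 1.01 (the floor), 1.14 and 2.82 in Casp11-/- NCD and 7.15, 4.12 and 10.55 in Casp11-/- HFD. Every HFD library was above every fitted NCD library, and the unfitted WT-NCD replicate 3, at 4.60, was within the HFD range. The mean was 1.62 ± 0.73 TPM (SD, n = 5) on NCD and 7.72 ± 2.23 (n = 6) on HFD, or 1.73 higher on the log2 scale with an SE of 0.35 (adjusted p = 0.00228 by limma). Ifi44 was called in all 11 fits that each left out 1 library, with log2 fold changes of 1.59 to 1.88. With all 12 libraries fitted it was 1.54 (adjusted p = 0.0998).

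Iigp1, also called Irga6, is a GTPase that interferon-gamma induces and that disrupts the vacuoles of intracellular parasites. It was at 10.1 and 8.54 TPM in WT-NCD, 40.2, 24.3 and 30.3 in WT-HFD, 6.86, 12.2 and 9.87 in Casp11-/- NCD and 23.1, 17.99 and 39.5 in Casp11-/- HFD. The diets did not overlap, and both genotypes had the higher values on HFD. From 9.50 ± 1.96 TPM (SD, n = 5) to 29.2 ± 9.10 (n = 6), it rose by 1.49 on the log2 scale with an SE of 0.34 (adjusted p = 0.00772 by limma). The call was kept in 10 of the 11 fits with 1 library left out and lost without WT-NCD replicate 2 (adjusted p = 0.0688). With all 12 libraries the value was 1.67 (adjusted p = 0.0544).

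Rtp4 (chromosome 16, 23520291 to 23614222, plus strand), a receptor transporter protein known to dampen interferon responses, was at 5.13 and 6.58 TPM in WT-NCD, 15.8, 12.04 and 19.7 in WT-HFD, 5.46, 3.12 and 12.1 in Casp11-/- NCD and 11.4, 12.9 and 12.3 in Casp11-/- HFD. Casp11-/- NCD replicate 3 reached the lower HFD libraries, and the other NCD libraries were below all of them. Rtp4 rose by 1.09 with an SE of 0.36 (log2, adjusted p = 0.0395 by limma), and the call was kept in 2 of the 11 fits with 1 library left out, those without Casp11-/- NCD replicate 2 or 3. An annotated neighbour, Gm45338, shared 10.46% of the 75-base stretches of Rtp4 transcripts.

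Among IFIT genes, Ifit3b (chromosome 19, 34607970 to 34613401, plus strand) was at 1.62 and 1.58 TPM in WT-NCD, 5.31, 2.94 and 3.92 in WT-HFD, 1.66, 1.60 and 2.27 in Casp11-/- NCD and 3.44, 3.50 and 4.63 in Casp11-/- HFD. The diets did not overlap among the fitted libraries, all at low levels, and WT-NCD replicate 3, at 5.96, was above them all. Ifit3b rose by 0.85 with an SE of 0.29 (log2, adjusted p = 0.0422 by limma), a call kept in 2 of the 11 fits with 1 library left out. Of its 75-base stretches 35.7% also occur in Ifit3, and 41.1% of those of Ifit3 in Ifit3b, so reads could be split between these genes. Ifit1, Ifit2 and Ifit3 did not pass the test on deposited TPM, with log2 fold changes of 0.97, 0.86 and 0.54 (limma adjusted p = 0.0647, 0.0939 and 0.264).

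Isg20 (chromosome 7, 78913424 to 78920396, plus strand), an exonuclease that degrades viral RNA, was at 5.14 and 5.56 TPM in WT-NCD, 1.63, 1.01 (the floor) and 1.92 in WT-HFD, 4.33, 1.45 and 5.48 in Casp11-/- NCD and 2.25, 2.37 and 2.12 in Casp11-/- HFD. Casp11-/- NCD replicate 2 lay within the HFD range and the other 4 NCD libraries above it. The gene fell by 0.89 ± 0.31 on the log2 scale (SE, limma adjusted p = 0.0451).
Adar (chromosome 3, 89715022 to 89753446, plus strand), which edits adenosine to inosine in double-stranded RNA, was at 20.2 and 25.9 TPM in WT-NCD, 11.5, 5.62 and 17.2 in WT-HFD, 32.8, 9.79 and 42.3 in Casp11-/- NCD and 8.09, 10.7 and 11.69 in Casp11-/- HFD. Here too Casp11-/- NCD replicate 2 was the NCD library among the HFD values. Adar fell by 1.12 ± 0.39 (SE, limma adjusted p = 0.0489). Both calls were kept in 2 of the 11 fits with 1 library left out, those without WT-HFD replicate 3 or Casp11-/- NCD replicate 2, and both were lost on the coding scale, where Isg20 was at -0.49 (adjusted p = 0.0942) and Adar at -0.52 (adjusted p = 0.173).

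Just beyond the threshold on the lower side were Trim25 (-1.05, limma adjusted p = 0.0507), Ifi35, a leucine zipper protein (-1.07, 0.051), and Ifi27l2a (-1.03, 0.0635). Trim25 was at 42.4 and 53.3 TPM in WT-NCD, 21.3, 12.6 and 29.7 in WT-HFD, 48.2, 21.3 and 66.7 in Casp11-/- NCD and 13.7, 24.9 and 29.0 in Casp11-/- HFD. Ifi27l2a was at 44.7 and 77.9 TPM in WT-NCD, 20.05, 23.3 and 34.1 in WT-HFD, 59.4, 14.1 and 51.5 in Casp11-/- NCD and 14.0, 27.9 and 17.4 in Casp11-/- HFD. In both genes 4 of the 5 fitted NCD libraries were above all HFD libraries, and Casp11-/- NCD replicate 2 was not. Bst2 was at 30.7 and 40.7 TPM in WT-NCD, 40.4, 25.2 and 48.9 in WT-HFD, 52.2, 21.7 and 25.8 in Casp11-/- NCD and 39.7, 33.7 and 38.9 in Casp11-/- HFD, with overlapping groups. Ifitm3 (-0.13, adjusted p = 0.82), Trim30a (0.17, 0.725) and Bst2 (0.16, 0.706) had small differences between the diets.

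The number of genes called depended on the scale and on single libraries. Against 4 higher and 2 lower on deposited TPM, 14 were higher and 0 lower on the coding scale, and 27 higher and 0 lower with values centred on the median of the genes above the floor in every library, where 29.9% of all genes tested were called higher and 9.07% lower. On the coding scale the share called over all 11247 genes was 6.38% higher and 7.04% lower, or 13.4% in either direction. At an unadjusted p under 0.05 by limma, 25 genes were higher (12.9% of all) and 1, Isg20, lower on that scale (20.1% of all). Its median was 0.68 for the list and -0.11 for all genes tested, and 33 of 40 genes were above 0, against 41.0% of all. With all 12 libraries in the fit, 0 genes were called on deposited TPM (0.041% of all higher and 0.513% lower) and 8 on the coding scale, all higher (2.83% of all). Leaving out 1 library gave 1 call, higher, without WT-NCD replicate 2 (0.214% of all genes higher) to 13 calls without Casp11-/- NCD replicate 2, where 5 were higher (2.44% of all) and 8 lower (45.8% of all). The coding scale gave 7 calls without WT-NCD replicate 2 to 22 without Casp11-/- NCD replicate 3, all higher (1.12% and 8.19% of all), and 7 genes, Ifi44, Iigp1, Rtp4, Ifit1, Ifit2, Ifit3b and Rsad2, were called in all 11 of those fits.

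**Figure D3:**
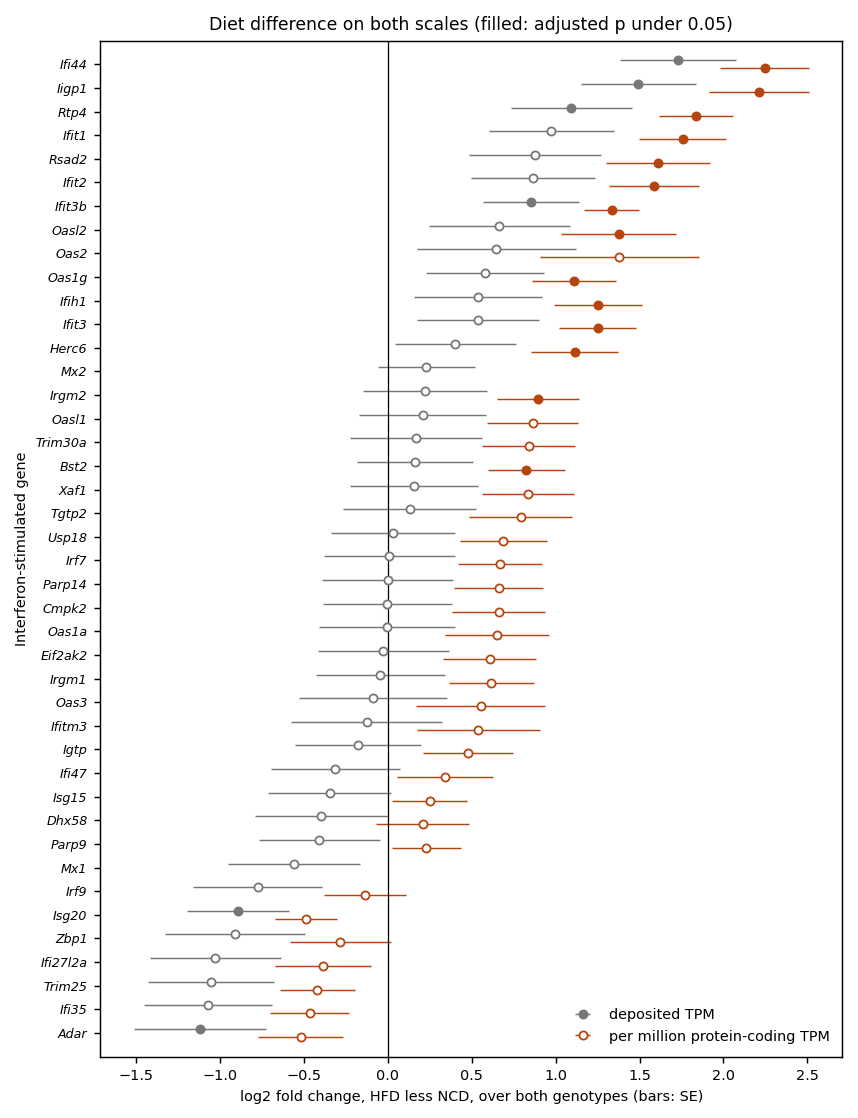
Log2 fold change on HFD over both genotypes with its SE for each gene, on deposited TPM (grey) and on the coding scale (orange), filled where the adjusted p was under 0.05. The 14 genes called on the coding scale run from 0.83 (Bst2) to 2.24 (Ifi44, a low estimate, 2.69 with values under the floor kept), and the 4 IFIT genes lie above 0 on both scales.

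All 4 IFIT genes rose on the coding scale. Ifit1 was at 9.93 and 7.0003 coding-scale TPM in WT-NCD, 32.3, 32.4 and 38.2 in WT-HFD, 10.4, 6.96 and 15.9 in Casp11-/- NCD and 40.7, 22.3 and 43.1 in Casp11-/- HFD. Ifit2, which also binds RNA, was at 16.8 and 11.4 in WT-NCD, 59.8, 50.5 and 54.0 in WT-HFD, 13.3, 16.3 and 25.0 in Casp11-/- NCD and 48.1, 26.5 and 66.0 in Casp11-/- HFD. Ifit3 was at 14.9 and 12.004 in WT-NCD, 34.7, 23.1 and 24.5 in WT-HFD, 12.2, 8.09 and 14.5 in Casp11-/- NCD and 37.9, 26.6 and 41.3 in Casp11-/- HFD. For each of these genes every HFD library was above every fitted NCD library, though for Ifit2 by little, 26.5 against 25.0. Such separation was seen for 9 of the 40 genes on this scale, against 3.67% of all genes tested, and the reverse for 0, against 4.68%. The log2 fold changes were 1.76 ± 0.26 for Ifit1, 1.59 ± 0.27 for Ifit2, 1.25 ± 0.23 for Ifit3 and 1.33 ± 0.16 for Ifit3b (SE, limma adjusted p = 0.00288, 0.00586, 0.0068 and 0.00128). For Ifit3b 4 of the 5 NCD libraries had been raised to the floor of 6.30, which makes its fold a low estimate and narrows its SE. With values under that floor kept, Ifit3b was at 1.66 ± 0.20 (adjusted p = 0.000918), and as many genes, 14, were called.

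Rsad2 was the restriction factor with the highest log2 fold change on this scale, 1.61 ± 0.31 (SE, limma adjusted p = 0.00837). It was at 11.5 and 19.0 coding-scale TPM in WT-NCD, 59.3, 52.4 and 49.7 in WT-HFD, 10.9, 17.3 and 42.7 in Casp11-/- NCD and 48.6, 53.5 and 68.7 in Casp11-/- HFD. Casp11-/- NCD replicate 3 came close to the HFD libraries, and the diets did not overlap. Bst2 also rose (0.83 ± 0.23, adjusted p = 0.0365), from 97.8 ± 28.8 (SD, n = 5) to 170.0 ± 22.6 (n = 6), in a call kept in 4 of the 11 fits with 1 library left out. Cmpk2, the nucleotide kinase beside Rsad2 on chromosome 12, was at 0.66 (adjusted p = 0.119).

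The OAS family has members that make the oligoadenylates that activate RNase L. Of the 6 OAS genes, all were above 0 on the coding scale and 4 on deposited TPM, and 2 were called on the coding scale. Oasl2 rose by 1.38 ± 0.34 (SE, limma adjusted p = 0.0235), from 29.5 ± 16.9 coding-scale TPM (SD, n = 5) to 71.0 ± 20.1 (n = 6). Oas1g rose by 1.11 ± 0.25 (adjusted p = 0.0166), from 7.81 ± 2.07 to 18.5 ± 5.08 as fitted, with 3 of the 5 NCD libraries raised to the floor, and by 1.34 ± 0.30 (adjusted p = 0.0145) with those values kept. Oas1g and Oas1a are near-copies that shared 36.9% and 47.6% of their 75-base stretches, and Oas1a did not pass (0.65, adjusted p = 0.163).

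Sensors and ISG15 genes differed among themselves. Ifih1, the double-stranded RNA sensor MDA5, rose on the coding scale (1.25 ± 0.26, SE, limma adjusted p = 0.0121), from 15.4 ± 8.83 (SD, n = 5) to 33.5 ± 5.35 (n = 6). Herc6, the ligase that attaches ISG15 in mice, rose as well (1.11 ± 0.26, adjusted p = 0.0189). Isg15 itself was at 0.25 (adjusted p = 0.46), Usp18, which removes ISG15, at 0.69 (0.0906) and Eif2ak2, or PKR, the kinase that stops translation, at 0.61 (0.145). The sensors Dhx58 (0.21) and Zbp1 (-0.28) and the factors Irf7 (0.67) and Irf9 (-0.14) did not pass either. The calls of both Ifih1 and Herc6 were lost without WT-NCD replicate 1 or 2, and that of Herc6 also without WT-HFD replicate 2.

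Genes called on the coding scale did not all carry the ISRE letters: 8 of the 12 called genes with a window had a match, and 9 of the 19 genes not called.

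**Figure D4:**
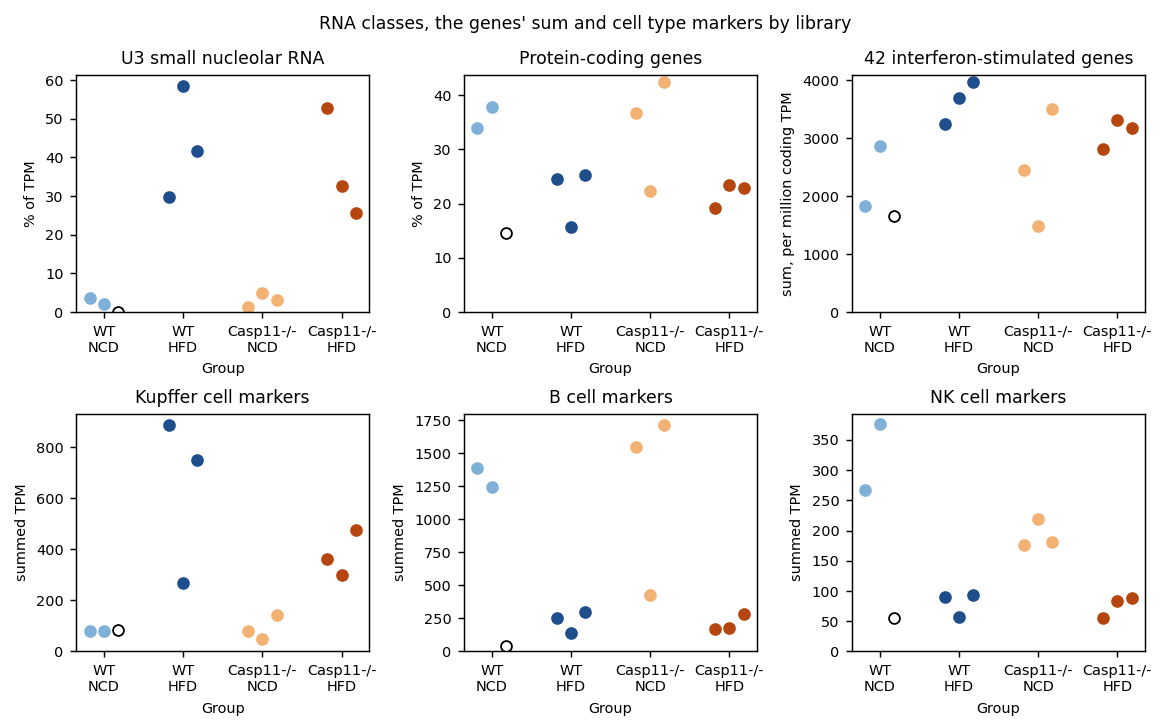
Shares of U3 copies and of protein-coding genes in TPM, the summed level of the 42 genes on the coding scale, and summed TPM of Kupffer, B and NK cell markers, with a point for each library by group. On HFD the U3 share is 25.8% to 58.5% and the Kupffer marker sum 268 to 889, both above all fitted NCD libraries.

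The makeup of the fraction moved with diet beside these genes. On deposited TPM 9 of 10 Kupffer cell markers and 4 of 6 sinusoidal endothelial markers were called higher on HFD, and 7 of 7 B cell, 6 of 7 NK cell, 5 of 8 T cell and 4 of 4 tested erythroid markers lower. On the coding scale 10 Kupffer cell and 5 endothelial markers were higher, and 7 B cell, 3 NK cell, 0 T cell and 3 erythroid markers lower. Of 7 monocyte markers 0 were called higher and 1 lower on deposited TPM, and 0 either way on the coding scale. Of 6 conventional dendritic cell markers 0 were called on deposited TPM, and 2 higher and 0 lower on the coding scale. Of 8 neutrophil markers 0 were called higher and 2 lower on both scales. Hepatocyte transcripts were also present in the fraction. Summed TPM of 8 hepatocyte markers was 6559 to 23415 on NCD and 9232 to 18507 on HFD. Of these markers 0 were called on deposited TPM, and 1 was called higher on the coding scale. Of 7 plasmacytoid dendritic cell markers, cells that make much type I interferon, 0 were called higher and 1 lower by limma on deposited TPM, and 1 higher and 0 lower on the coding scale, with summed TPM of 29.1 to 279 on NCD and 23.4 to 174 on HFD. Casp11-/- HFD replicate 2 stood apart in 8 neutrophil markers, with a summed TPM of 3981 against 103 to 949 in the other fitted libraries, and without it 2 genes of the list were called on deposited TPM and 15 on the coding scale, all higher (0.961% and 6.18% of all). The part of these shifts in the values of the interferon-stimulated genes was not tested, and in such bulk samples fewer cells of a type and less RNA per cell cannot be told apart. Summed over the 42 genes, the level on the coding scale was 1823 and 2871 in WT-NCD, 3247, 3695 and 3973 in WT-HFD, 2445, 1484 and 3495 in Casp11-/- NCD and 2820, 3317 and 3168 in Casp11-/- HFD. The sum of Casp11-/- NCD replicate 3 was above 4 of the 6 HFD libraries, that of WT-NCD replicate 2 was above Casp11-/- HFD replicate 1, and those of the other 3 fitted NCD libraries were below all HFD libraries.

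Interferon genes themselves were hardly seen. Of 21 interferon genes in the files, 19 were at the floor in all 11 fitted libraries, every Ifna gene and Ifnb1 among them, Ifnk was above it in 4 and Ifng in all 11. Ifng was at 12.5 and 24.4 TPM in WT-NCD, 3.36, 1.56 and 8.29 in WT-HFD, 8.73, 4.49 and 11.9 in Casp11-/- NCD and 3.09, 1.84 and 5.69 in Casp11-/- HFD. It fell by 1.51 ± 0.41 on the log2 scale (SE, limma adjusted p = 0.019), with WT-HFD replicate 3 and Casp11-/- HFD replicate 3 among the NCD values. Rescaled, it was at -1.08 (adjusted p = 0.0593).

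Of 53 genes of the interferon pathway (interferons, receptors, interferon regulatory factors, sensors and adaptors, negative regulators), 34 were tested on deposited TPM, with 0 called higher and 11 lower by limma and a median of -0.81. Of all genes tested 1.07% were called higher and 17.3% lower, and their median was -0.39. Ticam1, the adaptor TRIF that links TLR3 and TLR4 to interferon production, was at 13.3 and 18.6 TPM in WT-NCD, 4.65, 3.34 and 7.45 in WT-HFD, 18.6, 5.59 and 25.2 in Casp11-/- NCD and 2.57, 4.22 and 4.49 in Casp11-/- HFD, with a log2 fold change of -1.59 (adjusted p = 0.012). Ptpn6, the phosphatase SHP-1, fell as well (-1.602, adjusted p = 0.0201), and none of the 6 receptor genes was called. On the coding scale 32 of the pathway genes were tested, with 2 called higher (6.38% of all genes) and 1 lower (7.04%). Ticam1 fell (-1.10, limma adjusted p = 0.0197). Tlr4 (1.56, adjusted p = 0.00792) and Tlr3 (1.07, adjusted p = 0.0418), named after their values were seen, rose. Ptpn6 was not called (-0.96, adjusted p = 0.0684).

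Among 60 other interferon-induced genes, 57 were tested, with 1 called higher (1.07% of all genes) and 8 lower (17.3% of all). Their median was -0.54, where that of all genes tested was -0.39. The gene called higher was Gm4951, a GTPase gene of the same family as Iigp1, with a log2 fold change of 1.26 (limma adjusted p = 0.0214). It was at 1.85 and 1.64 TPM in WT-NCD, 10.96, 5.29 and 8.596 in WT-HFD, 2.87, 5.11 and 2.32 in Casp11-/- NCD and 5.80, 5.87 and 8.06 in Casp11-/- HFD, with every HFD library above every fitted NCD library. Pml, which builds nuclear bodies, and Ciita, the activator of MHC class II genes, fell (-1.62 and -1.68, adjusted p = 0.0114 and 0.0117), and both were also called lower on the coding scale (-1.02 and -1.08, adjusted p = 0.0281 and 0.0302). There, 12 of 56 were called higher (6.38% of all genes) and 2 lower (7.04% of all).

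Within each genotype the diet comparison had fewer libraries, and it shares them with the comparison over both. In data simulated for diet in WT, 0% of log2 changes of 1 and 28% of changes of 2 were called. A count of 0 called therefore does not show that no gene changed. In WT mice 0 of the 42 genes were called by limma on deposited TPM, against 0.134% higher and 2.04% lower of all genes tested (2.18% in either direction), and 4 were higher and 3 lower at an unadjusted p under 0.05 (0.953% and 14.3% of all). In Casp11-/- mice 0 were called, against 0.117% and 0.986% (1.1% in either direction), and 2 were higher and 1 lower at an unadjusted p under 0.05 (2.74% and 24.3% of all). The medians of the list were 0.18 in WT and -0.08 in Casp11-/- mice, and those of all genes -0.27 and -0.51. In WT 27 genes were above 0 (37.1% of all), 13 were higher on HFD without overlap of the libraries (14.3% of all) and 7 lower (40.3% of all). In Casp11-/- mice 19 were above 0 (30.4% of all), 4 (Ifi44, Ifit3, Ifit3b and Iigp1) were higher without overlap (2.26% of all) and 0 lower (16.4% of all). The counts differed on the coding scale: in WT 34 of 40 were above 0 (51.9% of all), 28 were higher without overlap (25.2%) and 3 lower (21.8%), and 23 were higher (9.11%) and 1 lower (7.58%) at an unadjusted p under 0.05. In Casp11-/- mice 31 were above 0 (31.4% of all), 10 were higher without overlap (6.44%) and 0 lower (15.5%), and 13 were higher (8.86%) and 0 lower (16.4%) at an unadjusted p under 0.05. After adjustment 7 genes rose on that scale in WT (Ifi44, Ifit1, Ifit2, Ifit3b, Iigp1, Irgm2 and Rtp4), where 0.578% of all genes did (0.987% in either direction), and 6 in Casp11-/- mice (Ifi44, Ifit1, Ifit3, Ifit3b, Iigp1 and Rtp4), where 2.56% did (3.65% in either direction), and 0 fell in either genotype (0.409% and 1.09% of all). With all 12 libraries on the coding scale 0 were called in either genotype. Ifi44, with 4 of the 5 NCD libraries raised to the floor (both WT-NCD libraries among them), was at 2.39 in WT and 2.10 in Casp11-/- mice on that scale (limma adjusted p = 0.0252 and 0.0186), both low estimates. With values under the floor kept it was at 2.87 ± 0.44 and 2.52 ± 0.40 (SE, limma adjusted p = 0.0117 and 0.0169). Iigp1, which no floor touched, was at 2.44 ± 0.44 and 1.98 ± 0.40 (adjusted p = 0.0369 and 0.0277). The call of Isg20 over both genotypes rested on unequal values, -1.35 ± 0.46 in WT and -0.43 ± 0.41 in Casp11-/- mice on deposited TPM (adjusted p = 0.16 and 0.483), and the latter became 0.039 on the coding scale.

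**Figure D5:**
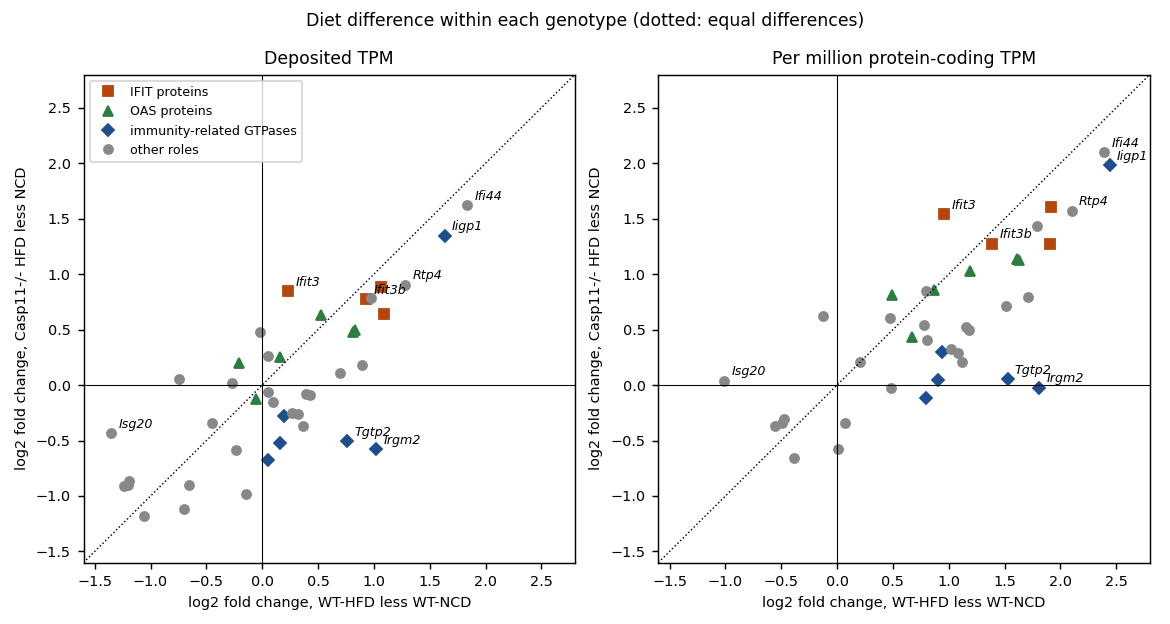
Log2 fold change on HFD in WT mice (x axis) against that in Casp11-/- mice (y axis) for each gene, on deposited TPM and on the coding scale, with a line where both are equal. Ifi44 and Iigp1 lie at the upper right on both scales, and Irgm2, at 1.02 and -0.58 on deposited TPM, lies below the line.

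The interaction asked whether the diet difference itself differed between genotypes. By limma 0 of the 42 genes were called, against 0.0% lower and 0.00557% higher of all genes tested. At an unadjusted p under 0.05, 1 gene, Irgm2, was lower (1.15% of all) and 0 were higher (1.45% of all). The coding scale gave 0 adjusted calls (0.0% of all) and, unadjusted, 2 lower (Irgm2 and Tgtp2, 3.33% of all) and 1 higher (Isg20, 1.02% of all), with 10 of 40 above 0 (31.9% of all). Irgm2, a GTPase that regulates the others of its family, was at 7.41 and 9.81 TPM in WT-NCD, 18.1, 15.8 and 21.5 in WT-HFD, 20.8, 6.31 and 26.6 in Casp11-/- NCD and 10.8, 8.45 and 10.9 in Casp11-/- HFD. In WT every HFD library was above both NCD libraries, and in Casp11-/- mice the HFD libraries lay between the NCD libraries. Its interaction was -1.596 ± 0.74 (SE), for which limma gave an unadjusted p of 0.0408 and an adjusted p of 1.0. Per coding total it was -1.83 ± 0.49 (SE, limma unadjusted p = 0.00254, adjusted p = 0.927). Irgm2 was among the 14 genes called higher over both genotypes on the coding scale. There its log2 fold change was above 0 in WT but not in Casp11-/- mice. In Casp11-/- mice it was at 55.6, 27.7 and 61.7 coding-scale TPM on NCD and 55.2, 35.4 and 46.6 on HFD. Igtp shared 7.80% of its 75-base stretches with Irgm2, and 4.78% of those of Irgm2 occur in Igtp.
All 6 immunity-related GTPases had interactions below 0, from -1.596 to -0.29, and diet differences above 0 in WT (0.05 to 1.63), while in Casp11-/- mice 5 of 6 were below 0 on deposited TPM but 2 of 6 on the coding scale. On the coding scale too all 6 interactions were below 0, from -1.83 to -0.46. None of these differences passed the test in either genotype on deposited TPM. Over the 42 genes the median interaction was -0.25, where that of all genes was -0.12, and 13 were above 0 (37.0% of all).

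Genotype was compared on each diet. On NCD 0 of the 42 genes differed by limma, against 0.0% higher and 0.0557% lower of all genes tested, and 0 had an unadjusted p under 0.05 (1.38% and 1.86% of all). Above 0 were 23 genes (66.7% of all), and without overlap 0 were higher (4.72% of all) and 1, Isg15, was lower in Casp11-/- mice (2.64% of all). The median was 0.02 for the list and 0.08 for all genes. On the coding scale 0 were called (0.00889% of all), 1 (Irgm2) was higher (1.8% of all) and 0 lower (0.854%) unadjusted, 26 of 40 were above 0 (71.4%), and without overlap 2 were higher (Ifih1 and Irgm2, 9.97%) and 2 lower (Isg15 and Isg20, 2.27%). There the medians were 0.14 and 0.15. On HFD 0 differed as well, where 0.0% of all genes did in either direction, and 0 had an unadjusted p under 0.05 (0.396% and 0.357% of all). The median was -0.23 for the list and -0.04 for all genes, and 10 of 42 were above 0, against 41.2% of all. On both scales the values of all 6 immunity-related GTPases were below 0, on deposited TPM from -0.93 (Tgtp2) to -0.27 (Iigp1) with an SE of 0.46 to 0.53. For Irgm2, Ifi47 and Usp18 the HFD libraries of the genotypes did not overlap, all lower in Casp11-/- mice, as for 3.11% of all genes tested. Isg20 was higher there without overlap, as for 0.908%. The coding scale gave another set: 8 of 40 were lower without overlap (7.54% of all), Irf9, Irgm1, Irgm2, Parp9, Rtp4, Tgtp2, Usp18 and Xaf1 but not Ifi47, and Isg20 was higher (2.05% of all). Unadjusted, 2 were lower there (Irgm2 and Tgtp2, 1.65% of all) and 0 higher (1.24%), 0 were called, and 6 of 40 were above 0 (39.8%), with medians of -0.30 for the list and -0.07 for all genes. Tgtp2 and its near-copy Tgtp1 shared 81.4% of the 75-base stretches of Tgtp2, so its value may hold reads of both.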

How the data were processed

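RNA from 12 libraries (the immune cell fraction of 12 livers) was made with the Pico Input SMARTer stranded total RNA kit, read as single 75-base reads, aligned with STAR to mm10 (GRCm38.p6) and converted to TPM in Qlucore. The authors deposited linear TPM with a floor of 1.01, treated here as a score because of that floor, with no read counts, so depth is unknown. The 6 rows per file with no gene name were dropped. The file of Casp11-/- HFD replicate 2 has a heading that reads C1 and was used as its sample label gives it. Genes above the floor in 3 or more of 11 libraries (17950) were fitted in limma 3.58.1 (R 4.3.3) as log2(TPM + 1) with a mean-variance trend and 4 group means, leaving out WT-NCD replicate 3. A fold change on this scale understates that of low genes. P-values were adjusted over all genes tested by Benjamini-Hochberg (threshold 0.05). The 6 comparisons share libraries with one another. Alternatives were all 12 libraries, other filters and pseudocounts, rescaled protein-coding genes (values under the highest rescaled floor set to it, or, added later, kept), median centring, a replicate block, and each library left out. Scripts were tested on simulated data for diet in WT with 200 changed genes. They called 0% of log2 changes of 1 or -1, 28% of changes of 2 and 72% of changes of 4. Genes called in a comparison or among the 5 of highest mean were given in full, as were, chosen after their values were seen, genes of the coding scale and Irgm2. The genes and lists were chosen with earlier results of these data known. Tables were handled in Python 3.11.15 with pandas 2.3.3 and numpy 2.4.6, and plots made with matplotlib 3.10.9.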

Additional observations from a re-analysis of the deposited data

Results flagged for a closer look

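WT-NCD replicate 3 was in no test, and 5 of the 42 genes were higher in it than in all 5 other NCD libraries: Isg15, Ifit3b, Oas1g, Mx2 and Ifi44. That is 11.9% of the list, where 36.0% of the genes tested were above all 5. In the same library 22 of the 42 genes (52.4%) were below all 5 others, where 38.9% of the genes tested were. Ifnb1, at the floor in the 11 fitted libraries, was at 17.3 TPM there.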

How the results depend on the processing

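For diet over both genotypes, 6 genes were called, and the number was 0 with all 12 libraries, 2 with genes above the floor in at least 1 library, 14 with protein-coding genes rescaled, 27 with median centring and 1 to 13 with 1 library left out. With both changes at once, rescaled and 1 library left out (added after the data were seen), it was 7 to 22. In WT mice the number was 0, and 7 rescaled, 9 median centred, 5 with the spread of the groups compared, 0 to 3 with 1 library left out and 0 to 10 rescaled with 1 left out (4 without Casp11-/- HFD replicate 3). In Casp11-/- mice it was 0, and 6 rescaled, 9 median centred, 0 to 16 with 1 library left out (16 without Casp11-/- NCD replicate 2, 2 higher and 14 lower, against 3.03% and 46.1% of all genes) and 0 to 10 rescaled with 1 left out. For genotype on either diet and the interaction it was 0 in every alternative run. Rescaling with values under the common floor kept (also added later) gave the same counts of 14, 7 and 6 and left Ifitm3 at 0.54 and Isg20 at 0.039. Where no share of all genes called in the same fit is given, a count shows only how the number moved with the processing. Such a count is no result about the list. The causes of these changes were not tested.

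The values do not settle whether replicate numbers pair the libraries. Of 15 same-number pairs 8 had a correlation of deviations over 0.1, and over all 15 it ranged from -0.327 to 0.467. With the replicate number as a block, 11 genes were called over both genotypes (5 higher and 6 lower, against 1.82% and 35.6% of all genes), 2 in WT (1 higher and 1 lower, 0.29% and 6.04%) and 1, higher, in Casp11-/- mice (1.11%).

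Some log2 fold changes changed sign. Ifitm3 over both genotypes became 0.45 with all 12 libraries, 0.54 rescaled, 0.55 median centred and 0.90 rescaled with all 12, and ranged from -0.56 to 0.30 with 1 library left out. Rescaled, it was 0.15 and 0.93 without WT-NCD replicate 1 and 2, 0.59, 0.51 and 0.52 without WT-HFD replicate 1, 2 and 3, 0.48, 0.35 and 0.79 without each Casp11-/- NCD and 0.62, 0.44 and 0.56 without each Casp11-/- HFD library. Isg20 in Casp11-/- mice became 0.039 rescaled (also without any 1 WT library), 0.29 median centred and 0.0030 rescaled with all 12 libraries. Rescaled, Isg20 was 0.15 and 0.21 without Casp11-/- NCD replicate 1 and 3, 0.053 and 0.11 without Casp11-/- HFD replicate 2 and 3, and -0.24 at the lowest. Rescaled with all 12 libraries, Adar in WT became 0.34 and Trim25 over both genotypes 0.066. Trim30a over both genotypes ranged from -0.14 to 0.48 with 1 library left out. The median of the list less that of all genes tested stayed above 0 in the diet comparison over both genotypes, from 0.21 to 0.97.

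Depth is unknown, so no counting error can be given, and values near the floor cannot be told from no expression.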
